A study of Mus musculus with 2 samples.

Results

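The family of miR-130 and miR-301 comprised mmu-miR-130a-3p, mmu-miR-130b-3p, mmu-miR-301a-3p and mmu-miR-301b-3p, 4 of the 1881 mouse miRNAs on the array. The members were taken by name and not by their signal. Exosomes, small vesicles that cells release with RNA inside, were isolated by differential ultracentrifugation from the supernatants of a pair of mouse pancreatic cell lines. KPC-exosomes came from a pancreatic cancer line derived from a tumour of KrasLSL-G12D/+, Trp53LSL-R172H/+, Pdx1-Cre mice, in which the Pdx1 promoter drives Cre in the developing pancreas, and the line was kept in 20% FBS. MPDC-exosomes came from MPDC, a purchased pancreatic ductal epithelial line kept in 10% FBS, for which the labels give no allele, agent or age. The study concerned the action of cancer exosomes and their miRNAs on insulin resistance in muscle cells, for which the arrays compared the miRNAs of the exosome types, and each type was measured on 1 Agilent array with 1 colour (Cy3). Each group is 1 cell line and 1 array, so no SD, test or p-value across samples is given, and line, culture medium, preparation and array cannot be told apart. The scanner error quoted below covers the measurement on these arrays only. The same amount of RNA, 0.5 µg per the labels, was labelled for each array. The signals therefore do not measure the number of vesicles or the amount of RNA per vesicle.

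A miRNA finds its target mRNAs mainly by pairing of its seed, bases 2 to 8 from the 5′ end, with sites in the mRNA, and it lowers the output of those mRNAs. Members of a family share the seed and so share many predicted targets, while the rest of the sequence differs. miR-130a is known for its role in endothelial cells and blood progenitors, and the miR-130 members repress Pparg, a regulator of fat cell differentiation. miR-301a lies in an intron of the host gene SKA2 in humans and is known in pancreatic cancer cells as an activator of NF-kB through repression of NKRF, and miR-130b is known as a repressor of TP53INP1, a p53-induced stress gene.

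The mature sequences below, from RefSeq, show what the members share (the seed, in capitals) and where they part. The last of the group, miR-721, carries the same seed on the array and is not a member.
mmu-miR-130a-3p: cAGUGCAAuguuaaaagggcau
mmu-miR-130b-3p: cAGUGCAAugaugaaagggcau
mmu-miR-301a-3p: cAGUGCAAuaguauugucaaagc
mmu-miR-721: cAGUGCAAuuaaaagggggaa

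miR-130a-3p and miR-130b-3p were identical at 20 of 22 bases and differed by U11A and A13G, counted from the 5′ end with the base of miR-130a-3p first. Beyond the seed, from base 9 on, miR-301a-3p was identical to miR-130a-3p at 4 of 14 bases and to miR-130b-3p at 3 of 14. Of the 1608 array miRNAs with a mature sequence in RefSeq, 7 had these bases 2 to 8. These were the 3 members shown and miR-130c, miR-6341, miR-6389 and miR-721. RefSeq held no mature sequence for miR-301b-3p, so this member was not among the 1608. Its absence from the 7 does not mean that it lacks the seed. The hairpin of miR-301b holds the same run of bases, AGUGCAA.

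The capitals in the hairpin of miR-301b mark the stretch complementary to the longest probe for miR-301b-3p, and the probes of the miR-301 pair are shown because they are nearly the same.
Mir301b hairpin: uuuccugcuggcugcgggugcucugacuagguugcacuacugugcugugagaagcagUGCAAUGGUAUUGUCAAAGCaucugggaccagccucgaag
miR-301a-3p probe: gctttgacaatactattgca
miR-301b-3p probe: gctttgacaataccattgca

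Over these 20 bases the probes differed by T14C alone, counted from the 5′ end of the probe with the base for miR-301a-3p first. The longest probes for miR-130a-3p and miR-130b-3p shared 16 of 18 bases and differed by T10C and A12T. In GRCm38.p6, Mir130a lies at chr2:84741115-84741178 on the minus strand and within no other gene, with Ypel4 as the nearest coding gene, 2460 bp away. Mir301, the gene of miR-301a, lies at chr11:87113004-87113089 on the plus strand, within the span of Ska2. Mir130b at chr16:17124061-17124142 and Mir301b at chr16:17124400-17124496 both lie on the minus strand within the span of 2610318N02Rik, with 257 bases between the hairpins. The family thus came from 3 loci, and miR-130b and miR-301b from the same locus. Whether the hairpins fall in introns or exons was not resolved here.

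All 4 members had the lower signal in KPC-exosomes. The signal of a miRNA, in arbitrary units of intensity, is the sum of the total signals of its probes that exceed 3 times their scanner error, and such probes are called detected. miR-130a-3p gave 2170 ± 161 (scanner error) in KPC-exosomes and 20820 ± 1543 in MPDC-exosomes. Its log2 difference, KPC-exosomes minus MPDC-exosomes, was -3.26 ± 0.15 before normalization, which is 9.60-fold lower. miR-130b-3p gave 1691 ± 140 and 10063 ± 838, a log2 difference of -2.57 ± 0.17 or 5.95-fold lower. Both miR-130 members were thus far brighter in MPDC-exosomes, and each difference was many times its scanner error.

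The miR-301 members lay the same way. miR-301a-3p gave 558 ± 48.7 in KPC-exosomes and 4075 ± 356 in MPDC-exosomes, with a log2 difference of -2.87 ± 0.18 (7.31-fold lower). miR-301b-3p gave 46.4 ± 3.47 and 763 ± 54.5, with a log2 difference of -4.04 ± 0.15 (16.4-fold lower). This was the largest fold difference among the members. miR-301b-3p had 2 of its 4 probes detected in KPC-exosomes and 3 of 4 in MPDC-exosomes, and over the same 2 probes the log2 difference was -4.00.

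These differences stood on a lower signal of most miRNAs in KPC-exosomes. Over the 726 miRNAs detected on both arrays the median log2 difference before normalization was -1.37, against -3.07 for the 4 members. Of the 726, 591 (81.4%) had the lower signal in KPC-exosomes, and 427 (58.8%) were at least 2-fold lower before normalization, as were 4 of 4 members. The summed signal of the members was 4464 for KPC-exosomes against 35719 for MPDC-exosomes, while the summed signal of all detected miRNAs was 3.28-fold lower in KPC-exosomes. The 4 spike-in controls used for scaling differed by -0.31 to 0.38 on the log2 scale before normalization. After quantile normalization they lay 1.18 to 2.43 higher in KPC-exosomes.

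Quantile normalization, which gives both arrays the same distribution of signals, made the differences smaller and kept their sign. The normalized log2 levels of miR-130a-3p were 11.92 for KPC-exosomes against 13.22 for MPDC-exosomes, which differ by -1.29 (2.45-fold lower). miR-130b-3p stood at 11.60 and 12.38, a difference of -0.78 (1.72-fold lower). miR-301a-3p stood at 9.87 and 11.14, a difference of -1.27 (2.41-fold lower). miR-301b-3p stood at 6.48 and 8.70, a difference of -2.23 (4.68-fold lower). The median of the family was -1.28 and that of the 726 miRNAs 0.53, a gap of -1.81 on the log2 scale.

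With the filter of the study, a detected signal on at least 1 array and a difference of at least 2-fold after normalization, 3 of 4 members were called lower and none higher. miR-130b-3p was the member not called. In the background, 460 of the 1077 miRNAs detected on at least 1 array (42.7%) were called lower, many of them detected in MPDC-exosomes only. Of the 726 miRNAs detected on both arrays, as all members were, 155 (21.3%) were called lower. The share was higher among miRNAs with signals like the members'. Among 123 non-members detected on both arrays, with a signal in MPDC-exosomes within the members' range, 63 (51.2%) were called lower and 27 higher, with a median of -1.12 after normalization and -2.85 before. This comparison was added after the members' values were seen, and beside it the members' count and medians stand close to those of other miRNAs of like signal. The 123 were chosen by their signal in MPDC-exosomes, which enters the difference itself, so such a choice can lean toward lower values.

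**Figure D1:**
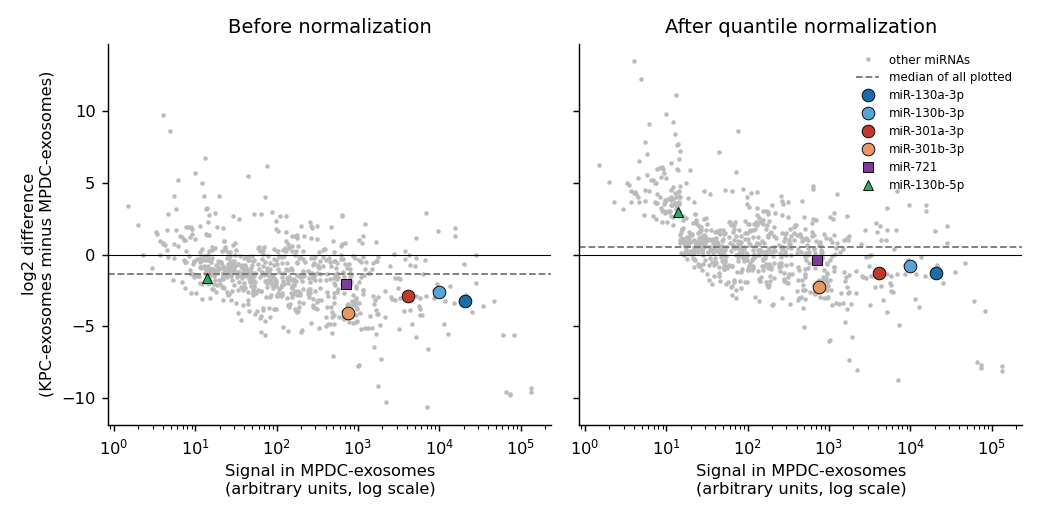
Log2 difference (KPC-exosomes minus MPDC-exosomes) of the 726 miRNAs that both arrays detected against their signal in MPDC-exosomes (log axis), before (left) and after (right) quantile normalization, 1 array per group. The 4 members lie below 0 in both panels and below the dashed median of all miRNAs plotted (-1.37 and 0.53), while miR-130b-5p lies below 0 on the left and above it on the right.

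The members did not differ to the same extent. The log2 difference of miR-130b-3p was 0.69 ± 0.23 (scanner error) above that of miR-130a-3p before normalization and 0.51 above it after, so miR-130a-3p differed more between the exosomes than miR-130b-3p. The log2 difference of miR-301b-3p minus that of miR-301a-3p was -1.17 ± 0.23 before normalization and -0.96 after. Set against miR-130b-3p, which shares its locus, the log2 difference of miR-301b-3p was larger, by -1.46 ± 0.23 before normalization and -1.45 after. The pair from the same locus thus held both ends of the family's range, miR-130b-3p the smallest difference and miR-301b-3p the largest. Among the 726 miRNAs, 9.09% lay lower than miR-301b-3p before normalization, 15.8% lower than miR-130a-3p, 20.8% lower than miR-301a-3p and 25.8% lower than miR-130b-3p.

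The separate probes of each member gave close to the same difference. The 4 members had 10 probes with 120 spots per array, of which none was saturated, and 8 probes were detected on both arrays. The 18-base probe for miR-130a-3p gave totals of 736 in KPC-exosomes and 7199 in MPDC-exosomes (log2 difference -3.29), and its 19-base probe 1434 and 13621 (-3.25). For miR-130b-3p the 17-base probe gave 329 and 1913 (-2.54) and the 18-base probe 1362 and 8150 (-2.58). With the spots marked as outliers left out (9 in KPC-exosomes and 4 in MPDC-exosomes over all 10 probes), every spot of KPC-exosomes lay below every spot of MPDC-exosomes at each of the 8 probes.

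The probe of miR-301a-3p shown above, with 20 bases, gave 77.4 and 566 (-2.87), and its 21-base probe 480 and 3509 (-2.87). The 19-base probe for miR-301b-3p gave 16.8 and 273 (-4.03), and the 20-base probe shown above gave 29.7 and 471 (-3.99). Within each member the differences of the probes lay within 0.04 of each other on the log2 scale. The 18-base probe for miR-301b-3p was detected in MPDC-exosomes only, at 18.7 ± 1.95, and the 17-base probe on neither array. How far the nearly identical probes of a pair bind each other's miRNA was not tested. The probes of miR-301a-3p and miR-301b-3p differed in their KPC to MPDC difference by more than their scanner errors.

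**Figure D2:**
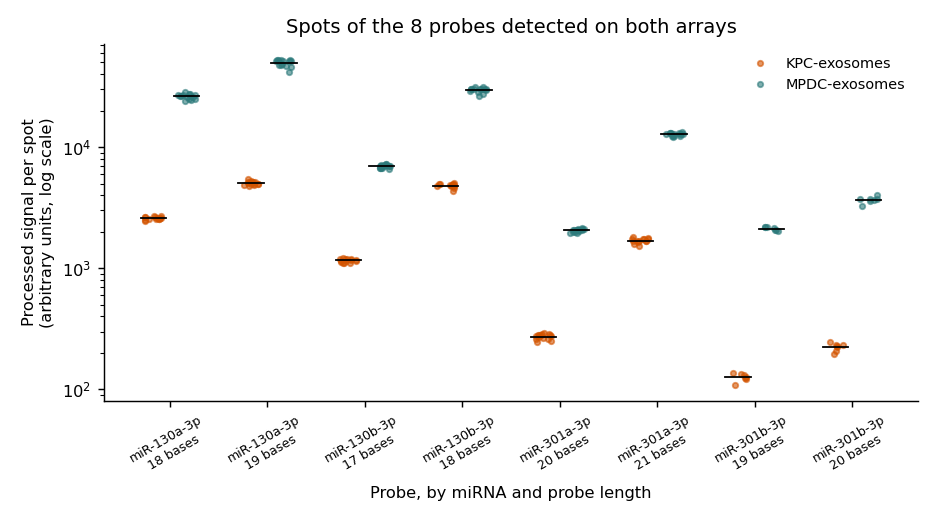
Processed signal of each spot (arbitrary units, log axis) for the 8 member probes detected on both arrays, with KPC-exosomes and MPDC-exosomes side by side, points for spots and a bar for their mean. Spots of a probe lie close together, with CVs of 2.60% to 7.56%, and at every probe the spots of KPC-exosomes lie below those of MPDC-exosomes. Outlier spots are left out, and spots of 1 array are repeats of the same sample.

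The other strand of the same hairpins, the 5p arm, was detected for 1 of 4 members. miR-130a-5p, miR-301a-5p and miR-301b-5p were detected on neither array. miR-130b-5p was faint, at 4.43 ± 0.696 in KPC-exosomes and 13.9 ± 1.21 in MPDC-exosomes, with 2 of its 4 probes detected on both arrays. Before normalization it was lower by -1.65 ± 0.26, and after normalization it was listed as higher by 2.97, since normalization moved it by 4.62 against 1.60 to 1.97 for the members. Over the 13 processing alternatives its difference ran from -1.68 to 2.97, so no direction is given for this arm.

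Of the non-members with the family's seed, miR-130c, miR-6341 and miR-6389 were detected on neither array. miR-721 gave 172 ± 8.68 in KPC-exosomes and 714 ± 35.9 in MPDC-exosomes, with all 4 probes detected on both arrays. These probes have 12 to 15 bases. Their totals, 40.4 to 46.9 in KPC-exosomes and 160 to 202 in MPDC-exosomes, did not rise with length. For each member the longer of the 2 probes detected on both arrays gave the higher total. How specific the short probes are was not tested. The log2 difference of miR-721 was -2.06 ± 0.10 before normalization and -0.37 after. It thus lay on the side of the members, with a smaller difference than any of them, and was not called.

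Another 24 miRNAs of the array held AGUGC, the core of the seed, within bases 2 to 8 without sharing the full seed. Of these 20 were detected on at least 1 array, 14 of them by both arrays and 6 in MPDC-exosomes alone. All 14 had the lower signal in KPC-exosomes before normalization (median -3.42, range -9.81 to -0.08), beside 81.4% of all 726, and their median after normalization was -1.54. After normalization 14 of the 20 detected were called lower and 2 higher, against 42.7% and 31.5% of the 1077. With bounds in place of the floor, 4 of the 6 detected in MPDC-exosomes only were at least 2-fold lower.

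Among them, the miR-17 family, which is known for promoting proliferation, had 5 members detected on both arrays. All 5 were lower before normalization (-5.60 to -2.17), again beside 81.4% of the 726 miRNAs detected on both arrays. After normalization 3 were called lower (-3.25 to -0.16), beside 21.3% of the 726. In the family of miR-148 and miR-152, known to repress DNA methyltransferases, miR-148b-3p differed by -3.09 before and -1.27 after normalization, and miR-152-3p by -0.60 and 1.23. miR-148a-3p, a miRNA of the pancreas, was detected in MPDC-exosomes only, at 1190 ± 88.5. It was at least 155-fold lower in KPC-exosomes after normalization, the lowest detected level of that array being the limit. miR-302b-3p and miR-302d-3p, miRNAs of pluripotent cells, had signals in MPDC-exosomes alone and were by the same measure at least 13.4-fold and 12.0-fold lower. miR-302a-3p, taken by name and not counted among the 24, was at least 52.0-fold lower.

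The miRNAs outside the family whose differences lay nearest to the family median, by the larger of the gaps before and after normalization, were miR-148b-3p, miR-16-5p, miR-7044-5p, miR-7032-5p and miR-362-3p. The gaps ran from 0.02 to 0.09 on the log2 scale and rest on 2 arrays. Such values were not rare, since 105 of 722 non-members (14.5%) had both differences within the range of the members.

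The cell type of the exosomes was checked with marker miRNAs, whose calls stand against 42.7% of all detected miRNAs called lower and 31.5% called higher. Of 7 epithelial markers all were detected on at least 1 array, and 5 were called lower in KPC-exosomes and none higher. Of 5 pancreas markers 3 were detected on neither array, 1 was detected in KPC-exosomes alone and called higher, and 1 in MPDC-exosomes alone and called lower. Of 10 markers of pluripotent cells all were called lower, with a summed signal of 657 for KPC-exosomes against 482481 for MPDC-exosomes over the 6 that both arrays detected, and 4 had a signal in MPDC-exosomes alone. The 5 mesenchymal markers were detected in MPDC-exosomes only. Of 6 haematopoietic markers 3 were called higher and 1 lower, and of 3 serum markers 2 were called lower. Markers detected on 1 array only were called through the floor on the other. With bounds in place of the floor, 1 of 2 such epithelial markers was at least 2-fold lower, as were 4 of 4 pluripotent, 3 of 5 mesenchymal and 0 of 1 serum markers. The pancreas and haematopoietic markers of this kind were all at least 2-fold apart. The part of other cell types in the members' differences was not tested.

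The members kept their side under every setting tried. Over 13 alternatives of scaling, background, probe summary and floor, the log2 difference of miR-130a-3p ran from -3.29 to -1.26, that of miR-130b-3p from -2.60 to -0.73, that of miR-301a-3p from -2.89 to -1.05 and that of miR-301b-3p from -4.06 to -1.31. All 4 members were lower in each of them, and 3 or 4 were at least 2-fold lower. The share of all miRNAs at least 2-fold lower was not computed for most alternatives. Among the 726 it was 21.3% after quantile normalization and 58.8% without normalization. The value of -1.31 for miR-301b-3p came from totals that hold the signal of miR-301a-3p as well. The family median lay below that of all miRNAs measured on both arrays in each alternative, by -2.08 to -1.27. Part of this was fixed in advance. Scaling a whole array cannot change this gap, which was -1.69 without normalization and with each scaling of the summed probe signals. The deposited values repeat the reported ones, and a floor of 1 left the members' values as they were. The alternatives are computed from the same 2 arrays and are no replicates.

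**Figure D3:**
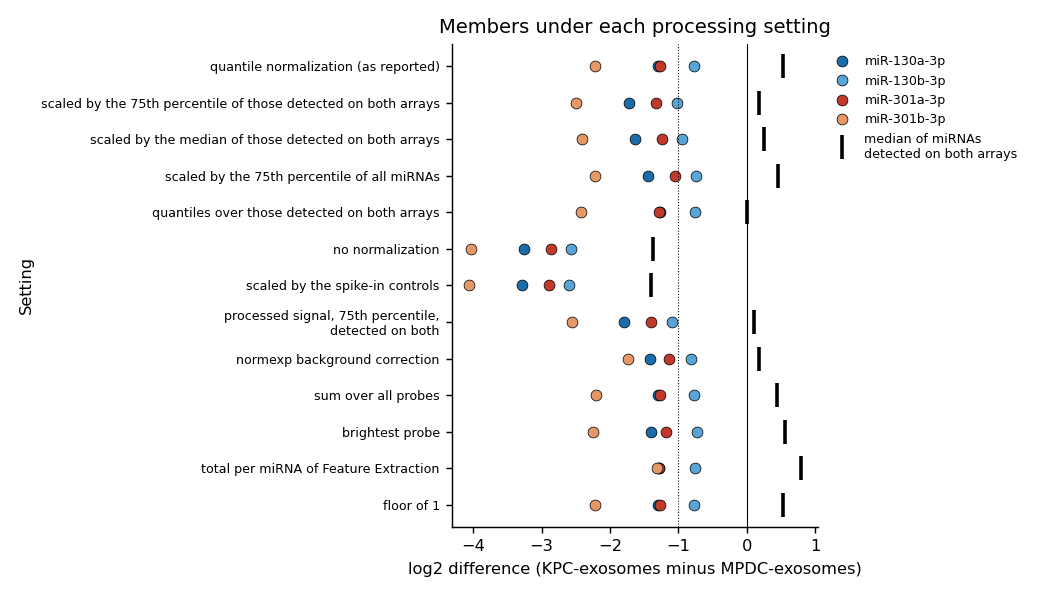
Log2 difference (KPC-exosomes minus MPDC-exosomes) of the 4 members under the reported normalization and the alternatives other than the deposited values, with black bars for the median of miRNAs detected on both arrays and a dotted line at 2-fold lower. Every member lies below 0 and below the black bar in each row, with miR-301b-3p lowest and miR-130b-3p highest. Without normalization the 4 members lie between -4.04 and -2.57.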

How the data were processed

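RNA from KPC-exosomes and MPDC-exosomes was hybridized to 1 Agilent mouse miRNA array each, on the same slide, with 0.5 µg RNA labelled with Cy3 per the labels. The authors deposited the scanner tables, with background-subtracted intensities from Agilent Feature Extraction (version 10.7.1.1 per the file headers, 9.1 in the submitters' processing notes), and log2 values normalized in GeneSpring. An array had 58594 spots, and 56430 of these were for the 4415 probes of 1881 miRNAs. KPC-exosomes gave a detected signal for 772 miRNAs and MPDC-exosomes for 1031, and the number of arrays limits the precision.

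Total probe signals over 3 scanner errors were summed per miRNA, undetected miRNAs were set to a floor of 0.1, and log2 values were quantile normalized with 21 control features. The result lay within 1.11e-05 of the deposited log2 values. Because quantile normalization hides unequal totals of miRNA and moves faint signals by another amount than bright ones, differences are also given without it. Where 1 array alone detected a miRNA, its level on the other array was bounded by the higher of the lowest detected level there and the miRNA's own. Normalization and the 2-fold call were tried on simulated arrays with the same detected miRNAs and as many miRNAs raised as lowered. The real arrays differ in both respects, so that trial does not show how the procedure performs on them. Python 3.11.15, numpy 2.4.6, pandas 2.3.3, matplotlib 3.10.9 and limma 3.58.1 in R 4.3.3 served for the computation.

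The members, lists and alternatives were chosen with earlier results of these data known. Named miRNAs were the members, their other arms, miRNAs with the same seed or its core (up to 3 examples a family), and the 5 with differences nearest to the family median. The deposited values and RefSeq sequences (GRCm38.p6) were the only sources of values and sequences apart from the probes of the files. Alternatives were scaling by the 75th percentile or median, by spike-in controls or not at all, quantiles over miRNAs detected on both arrays, the processed signal with 75th percentile scaling, normexp with an offset of 50, all probes, the brightest probe, the total per miRNA of Feature Extraction, a floor of 1, the deposited log2 values, and other call rules.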

Additional observations from a re-analysis of the deposited data

How the results depend on the processing

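The family median of -1.28 became -1.52 with 75th percentile scaling over miRNAs that both arrays detected, -1.59 with the processed signal and the same scaling, -3.07 without normalization and -3.09 with the spike-in controls. In the other 9 alternatives it moved by less than the scanner error. The number of members called lower, 3, became 1 at a threshold of 4-fold, and the call rules and settings otherwise left it at 3 or 4. The share of all miRNAs at 4-fold was not computed. Among the 726 miRNAs detected on both arrays, the share at least 2-fold lower was 21.3% after quantile normalization and 58.8% without normalization. The members' count alone is thus no measure of stability. Of the recomputed differences of single members, 20 moved by more than the scanner error, 32 did not, and none changed sign. The gap between miR-301b-3p and miR-301a-3p shrank from -0.96 to -0.60 with normexp. Which step of that setting shrank the gap was not tested. With Feature Extraction's own total per miRNA, in which the miR-301a-3p signal is included, the gap shrank to -0.03. That between miR-301b-3p and miR-130b-3p became -0.92 and -0.56. Signals of miR-301b-3p in KPC-exosomes rest on 2 faint probes. No paired analysis was possible because each group holds 1 array. No array could be left out for the same reason.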

Other observations

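Feature Extraction's own total for miR-301b-3p was not the sum over its own probes. It was 604 for KPC-exosomes against 4837 for MPDC-exosomes, which exceeded the sum over the detected probes (46.4 and 763) by 558 and 4075, the signals of miR-301a-3p. The total for miR-130b-5p, 1695 and 10076, likewise exceeded its probe sum of 4.43 and 13.9 by 1691 and 10063, the signals of miR-130b-3p. For miR-130a-3p, miR-130b-3p and miR-301a-3p the totals and the sums over probes differed by at most 0.1 units. The values reported above are sums over a miRNA's own probes.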
